A study of Danio rerio with 23 samples.

Results

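The transcripts described here are 150 whose level in young receptor-mutant ovaries matched the level in older wild-type ovaries and differed from that in young wild-type ovaries. They were drawn from 21333 transcripts with a mean of 1 CPM or more (CPM, counts scaled to the same library total) over 23 libraries, out of 57775 listed in all. They were selected on their measured levels, by the median of log2(CPM + 0.5) in each of 3 groups. A transcript was kept when the mutant at 3 months and the wild type at 6 months both had medians above that of the wild type at 3 months, or both below it, and these 2 medians lay within 0.5 of each other. Of the 8657 transcripts that met both conditions, the 150 whose smaller difference from the young wild type was largest were taken. The median smaller difference was 2.30 on the log2 scale in the 150 and 0.15 over the 21333. In 54 transcripts (the higher list) the level was above that of the young wild type, and in 96 (the lower list) it was below.

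RNA was taken from whole ovaries of female zebrafish, and libraries were made from polyadenylated RNA. The fish were wild type (WT) or nr3c1 -/-, a knockout present in all tissues, and are called GRKO when mutant. The 4 groups were WT at 3 months (5 libraries, numbered 2, 6, 10, 12 and 13 in their titles), WT at 6 months (6 libraries, 1, 2, 6, 7, 8 and 9), GRKO at 3 months (6 libraries, 4, 7, 9, 10, 12 and 13) and GRKO at 6 months (6 libraries, 2, 3, 5, 10, 11 and 12). The series asks whether loss of the receptor makes the ovary age faster, which is the question behind a match between young mutants and older wild types. Nothing in the labels ties each library to a fish of its own, and the p-values therefore cover library-to-library spread, some of which may be technical.

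The gene nr3c1 encodes the glucocorticoid receptor, a nuclear receptor that binds cortisol, moves to the nucleus and raises or lowers transcription of its target genes. The ovary of an adult female zebrafish holds oocytes of all stages, each wrapped in follicle cells that make steroids and support its growth, together with stroma, vessels and immune cells. Cortisol reaches all of these cells, and the receptor is known from several tissues to act on metabolism, immune genes and the stress response. In whole-ovary RNA, fewer cells of a type and less RNA per cell cannot be told apart.

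The deposited values are estimated counts per transcript, and each library summed to between 29489146 and 39785753 counts. A total of 3 counts, taken as the floor of detection, stood for 0.0754 to 0.102 CPM. The files list Ensembl transcript identifiers with no gene names, and 0 of the 150 were found in the reference tables used here, so roles of single transcripts and markers of ovary cell types were not analysed here. Some libraries stood apart from their group in earlier results of these data, and they matter below. These were WT libraries 2 and 6 at 3 months and GRKO libraries 10 and 12 at 6 months. GRKO library 4 at 3 months is titled as a mutant, but its genotype field reads WT. The title was followed. Without this library 123 of the 150 transcripts were taken again, and 88 when it was counted as WT.

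The transcripts that the rule ranked first were present in some libraries and missing in others of the same group. The first, ENSDART00000158071.2, was in the lower list. It stood at 317, 284 and 352 CPM in WT libraries 10, 12 and 13 at 3 months and at 0 in WT libraries 2 and 6. At 6 months it stood at 337 and 326 CPM in WT libraries 8 and 9 and at 0 in the other 4. Its rounded count was 0 in all 12 GRKO libraries. Each WT group thus held both levels, and the median fell on the high one at 3 months and on the low one at 6 months.

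ENSDART00000193273.1, the second of the lower list, had another set of carriers. It stood at 154, 141, 204 and 217 CPM in WT libraries 2, 6, 10 and 13 at 3 months and at 0 in library 12. WT libraries 6 and 9 at 6 months had 66.2 and 62.7 CPM, and the other 4 had 0. Among the mutants, library 4 at 3 months had 81.5 CPM and library 2 at 6 months had 89.6 CPM, with 0 in the other 10. Both ages and both genotypes therefore included libraries with and without it, and the 4 groups overlapped.

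ENSDART00000143753.2 led the higher list. WT libraries 2 and 6 at 3 months had 226 and 111 CPM of it, and WT libraries 10, 12 and 13 had 0.0276 to 0.0594 CPM, which is below the floor. WT libraries 8 and 9 at 6 months were near the floor as well, at 0.0892 and 0.0888 CPM, while the other 4 ranged from 85.3 to 124 CPM. GRKO ranged from 100.5 to 147 CPM at 3 months (median 110) and from 34.9 to 113 CPM at 6 months (median 78.9). All 12 GRKO libraries were high, and the highest single value of the 23 was in a young WT library.

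ENSDART00000078998.6, next in the higher list, followed the same libraries. It stood at 36.8 and 23.3 CPM in WT libraries 2 and 6 at 3 months and at 0 to 0.0303 CPM in libraries 10, 12 and 13. In WT at 6 months it ranged from 80.4 to 99.2 CPM in 4 libraries and was at 0.0354 and 0.0348 CPM in libraries 8 and 9. GRKO ranged from 69.1 to 108 CPM at 3 months (median 91.4) and from 40.4 to 105 CPM at 6 months (median 79.1). The 2 young WT libraries that carried it lay below every GRKO library.

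**Figure D1:**
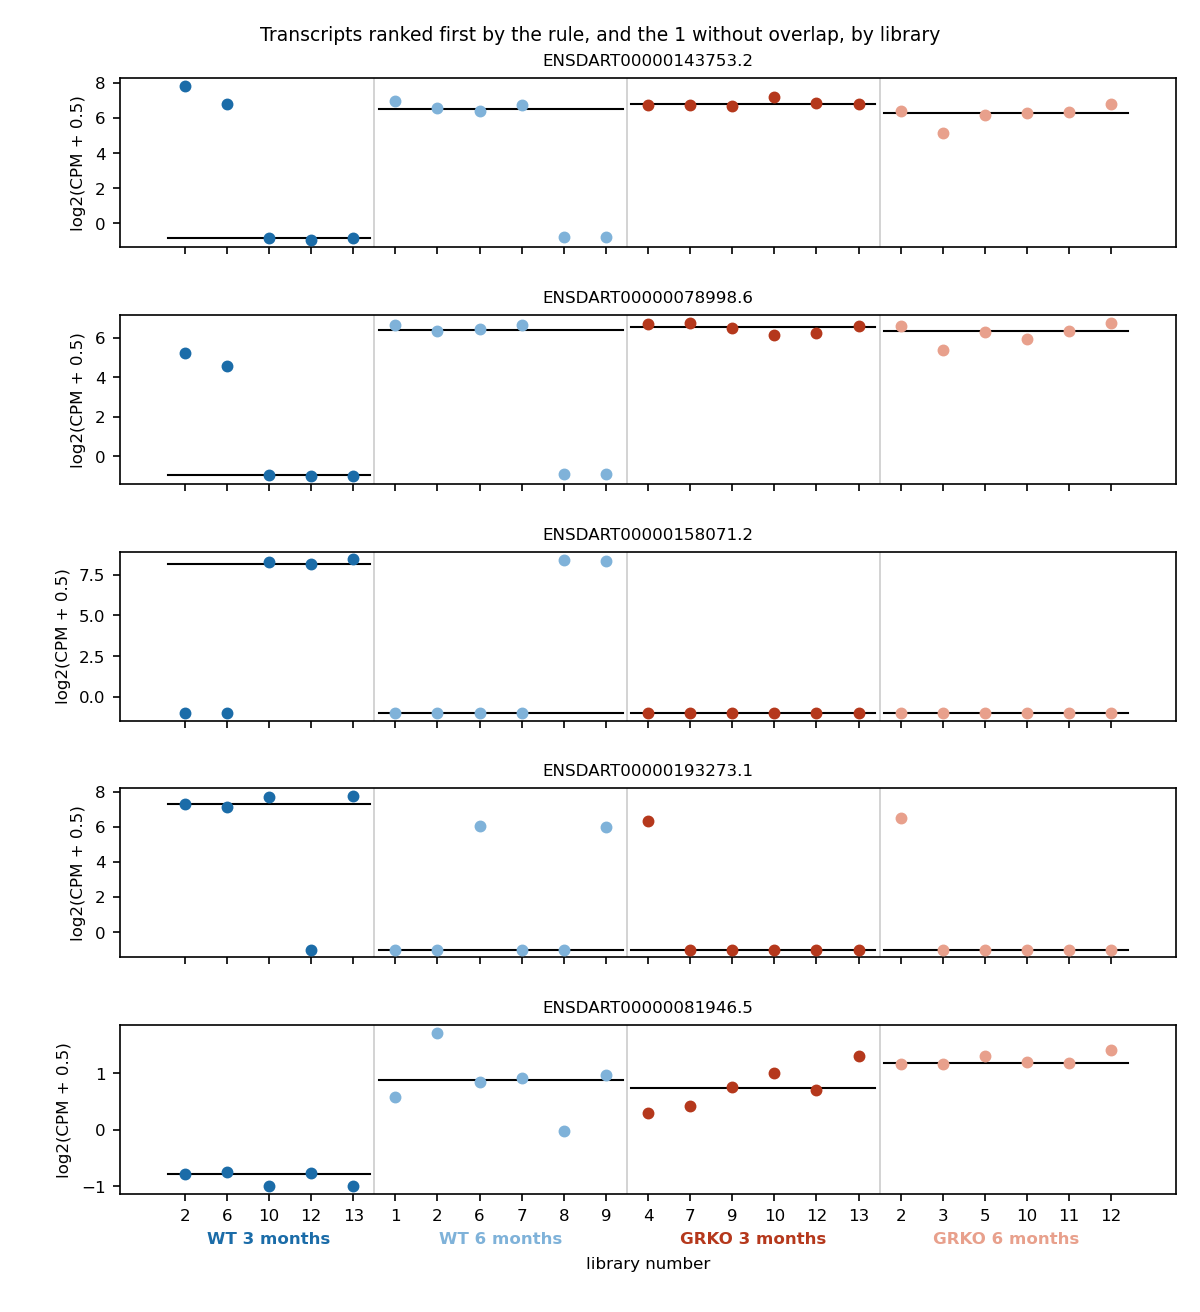
Level of the 4 transcripts ranked first by the rule in the 2 lists, and of the 1 transcript without overlap, in log2(CPM + 0.5) on the vertical axis, by library number and group on the horizontal axis; each point is a library and each line a group median. In the upper 4 panels libraries of one WT group sit at both levels, while in ENSDART00000081946.5 the 5 young WT libraries sit below all others.

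In nearly all of these transcripts the young WT libraries overlapped the other groups, as they did in nearly all of the 21333. In 1 of the 150 (0.667%) did the 5 young WT libraries lie wholly to one side of all 6 GRKO libraries at 3 months and all 6 WT libraries at 6 months. Over the 21333 transcripts the share was 0.141%, and since the rule used these levels, nothing is read from the difference. The same transcript also separated young WT from all 18 other libraries, which 0.0844% of the 21333 did. Taken against GRKO at 3 months alone, 8 transcripts did not overlap (5.33%, of which 7 were in the higher list), where 6.87% of all transcripts did not. Against WT at 6 months alone the number was 2 (1.33%), beside 1.29% of all transcripts.

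The 1 transcript without overlap was ENSDART00000081946.5, of the higher list and rank 129. Its level in WT at 3 months was 0.0835, 0.0982, 0, 0.0903 and 0 CPM in libraries 2, 6, 10, 12 and 13, or 0.0544 ± 0.0499 CPM (SD, n = 5), which is 3 counts in each of 3 libraries. It ranged from 0.487 to 2.81 CPM in WT at 6 months (median 1.35, mean 1.41 ± 0.772, SD, n = 6) and from 0.726 to 1.98 CPM in GRKO at 3 months (median 1.16, mean 1.23 ± 0.462, SD, n = 6). The 6 GRKO libraries at 6 months, which the rule used for the minimum level only, ranged from 1.76 to 2.16 CPM (median 1.79, mean 1.87 ± 0.164, SD, n = 6). All of them lay above every young WT library and within the range of WT at 6 months. Against WT at 3 months GRKO at 6 months was higher by 5.14 log2 units (standard error, SE, 0.63; adjusted p = 3.4e-05, edgeR's quasi-likelihood test with Benjamini-Hochberg adjustment). It passed in 36 of 37 alternatives, with adjusted p from 1.37e-15 to 0.0715. The young WT arm of this test is the one that chose the transcript, and the transcript was named for its lack of overlap. Its mean over all libraries met the minimum of 1 CPM only through the older mutants, which are the other arm. Both arms thus bear on the choice, and part of the difference was fixed by it.

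The young WT level was set by a bare majority of the 5 libraries in most of the set. Calling a library young-like when it lay on the WT 3 months side of the midpoint between the 2 levels of the rule, exactly 3 of the 5 young WT libraries were young-like in 121 of the 150 transcripts (80.7%). In 26 transcripts (17.3%) the number was 4, and in 3 (2%) it was all 5. Libraries 10, 12 and 13 were the 3 young-like ones in 89 transcripts (59.3%). That pattern took 73 of the 96 transcripts of the lower list (76.0%) and 16 of the 54 of the higher list (29.6%). The next patterns were libraries 2, 6 and 10, in 10 transcripts, and libraries 2, 12 and 13, in 9.

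Counted by library, WT libraries 2 and 6 at 3 months lay past the midpoint, on the side of the young mutants and older wild types, in 99 and 105 of the 150 transcripts. Libraries 10, 12 and 13 did so in 29, 18 and 17. The 6 GRKO libraries at 3 months were past it in 128 to 142, and the WT libraries at 6 months in 75 (library 9) to 132. Of the 2 lists, the lower one was behind most of this: libraries 2 and 6 were past the midpoint in 77 and 79 of its 96 transcripts, against 22 and 26 of the 54 in the higher list. Over the 8657 transcripts that met the sign and the tolerance, libraries 2 and 6 were past the midpoint in 57.6% and 57.3%, and libraries 10, 12 and 13 in 17.1% to 20.5%.

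**Figure D2:**
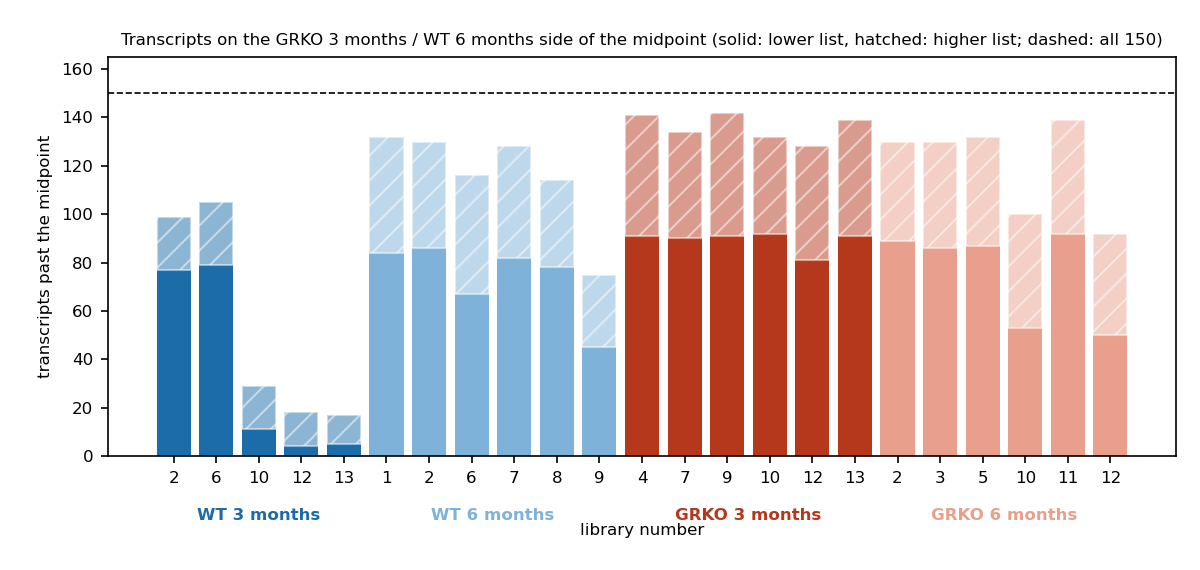
Number of the 150 transcripts past the midpoint, on the side of GRKO at 3 months and WT at 6 months, for each of the 23 libraries, with the lower list solid and the higher list hatched. WT libraries 2 and 6 at 3 months reach 99 and 105, against 29 or fewer in the other 3 of their group, and GRKO libraries 10 and 12 at 6 months reach 100 and 92, through a shorter solid part.

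Summed over each list, the higher transcripts made 214 to 648 CPM in WT at 3 months, with the top 2 values in libraries 2 and 6 (648 CPM in each). WT at 6 months ranged from 628 to 1153 CPM (median 939), GRKO at 3 months from 965 to 1186 CPM (median 1043) and GRKO at 6 months from 963 to 1066 CPM (median 1011). The WT groups overlapped in this sum, and both GRKO groups lay above every young WT library. The rule chose the transcripts on the levels of WT at both ages and of GRKO at 3 months. The sums of either list are therefore a description with no test. The lower transcripts summed to 4740, 5478 and 2956 CPM in WT libraries 10, 12 and 13 at 3 months and to 1112 and 922 CPM in libraries 2 and 6. WT at 6 months ranged from 94.4 to 1720 CPM (median 574) and GRKO at 3 months from 139 to 618 CPM (median 224). Here WT libraries 2 and 6 at 3 months lay inside the range of WT at 6 months and above that of the young mutants. A single transcript, ENSDART00000188266.1, made up much of some of these sums. It had 658 and 624 CPM in WT libraries 2 and 6 at 3 months and 187 to 244 CPM in libraries 10, 12 and 13. WT library 7 at 6 months had 593 CPM of it, and GRKO library 10 at 3 months had 571 CPM.

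The spread within groups was wide for the set. The median SD of log2(CPM + 0.5) was 2.15 in WT at 3 months, 1.34 in WT at 6 months, 0.42 in GRKO at 3 months and 1.04 in GRKO at 6 months. Over the 21333 transcripts the same medians were 0.47, 0.34, 0.26 and 0.33. In the lower list the young WT libraries had a median SD of 2.38, and in the higher list of 1.41. Since the rule used 3 of the 4 groups, these SDs are a description with no test.

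Many of the transcripts were missing in single libraries. In 79 of the 150 (52.7%) at least 1 library had a rounded count of 0 while another had 10 CPM or more, which held for 6.66% of the 21333. This was so for 68 of the 96 lower transcripts and 11 of the 54 higher ones. In 51 of the 150 (34%, beside 3.38% of the 21333), WT libraries 2 and 6 at 3 months were both at a count of 0, 42 of them in the lower list. All 6 GRKO libraries at 3 months were at a count of 0 for 22 of the 150 (14.7%, beside 1.06%), all in the lower list, and all 12 GRKO libraries for 15 (10%, beside 0.436%). No transcript of the set was at 0 in all 5 young WT libraries, and 1 was at 0 in all 6 WT libraries at 6 months. The rule took the largest differences on the log2 scale, which favours transcripts at 0 in some libraries and high in others. These shares are therefore a description with no test.

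The set was less abundant than the transcripts it was drawn from. Its median mean level was 4.24 CPM, against 10.3 CPM over the 21333, and 81 of the 150 (54%) had a mean under 5 CPM, against 36.2%. The estimated counts were whole numbers in every library for 8 of the 150 (5.33%) and for 14.1% of the 21333 (tolerance 0.001). Values that are not whole arise where reads are split between transcripts. Identifiers of version 1, which Ensembl gives to transcript models not revised since they were added, made up 50 of the 150 (33.3%) and 15.7% of the 21333. Among the higher transcripts 22 of 54 had one, and among the lower 28 of 96.

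A part of the 150 transcripts followed 3 patterns across the libraries, which were picked out after the values were seen and are given without a test. Of all pairs of the 150, 577 had a Pearson correlation of 0.95 or more over the 23 libraries on the log2 scale, and 75 transcripts took part in such a pair. Libraries are shared by all points, and the correlation is a description of them. The first was a block of 38 that was high in 2 older mutant libraries. The second was a split of 12 that followed WT libraries 8 and 9 at 6 months. The third was 29 that WT library 6 at 6 months shared mostly with WT libraries 10, 12 and 13 at 3 months.

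**Figure D3:**
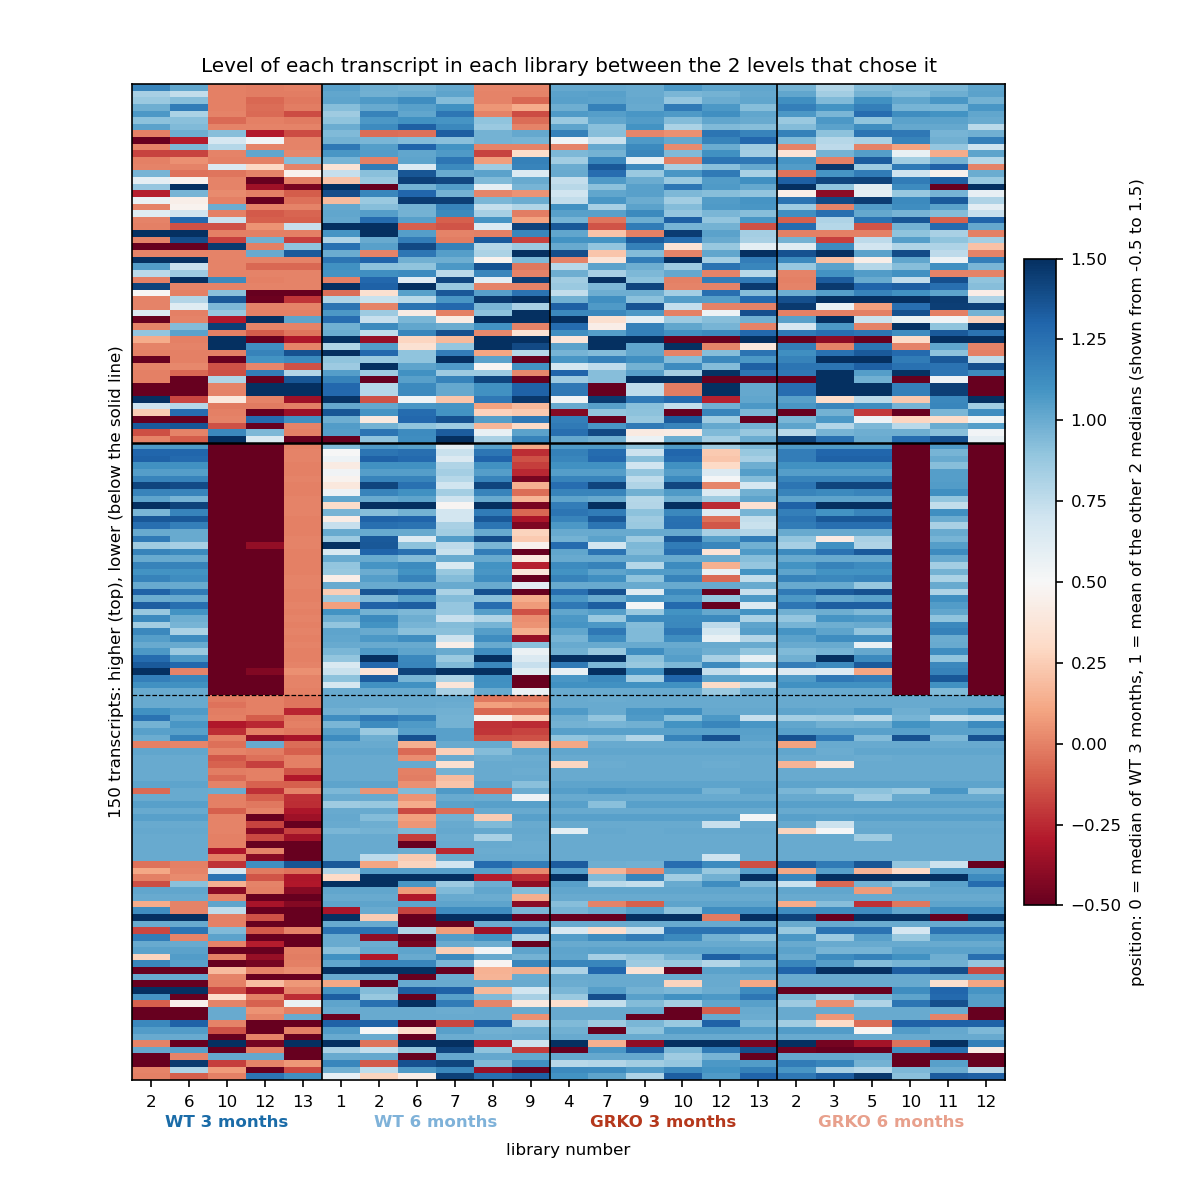
Position of each of the 150 transcripts (rows) in each library (columns), where 0 is the WT 3 months median and 1 the mean of the GRKO 3 months and WT 6 months medians, with the higher list above the solid line and the block of 38 between the solid and dashed lines. WT libraries 2 and 6 at 3 months take the colour of the mutants in most lower transcripts, and the block shows GRKO libraries 10 and 12 at 6 months on the young WT side.

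The block held 38 transcripts, all of the lower list, that were at least 8-fold higher in GRKO libraries 10 and 12 at 6 months than in the other 4 libraries of that group. They were 25.3% of the 150. Of the 21333 transcripts, 159 (0.745%) met the same condition. All 38 were higher in both of these libraries than in each of the other 21. Their median level was 253 CPM in GRKO library 10 and 347 CPM in library 12 at 6 months, and 0 to 0.176 CPM in the other 4. Pairs of the 38 correlated over the 23 libraries with a median r of 0.968 and a lowest r of 0.818.

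The same 38 were carried by a part of the young WT libraries. Their median level was 35.5, 28.1 and 2.78 CPM in WT libraries 10, 12 and 13 at 3 months, and 0 and 0.0374 CPM in libraries 2 and 6. In 37 of the 38, libraries 10, 12 and 13 all lay above libraries 2 and 6. WT library 9 at 6 months had a median of 3.57 CPM, above library 13 of the younger group, and the other 5 had 0.0168 to 0.458 CPM. In GRKO at 3 months the medians were 0 to 0.728 CPM. The young WT group therefore held 3 levels of the block, and the highest levels of all were in 2 mutants of the older age.

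Summed over the block, GRKO libraries 10 and 12 at 6 months reached 25579 and 34042 CPM. WT libraries 10, 12 and 13 at 3 months had 3167, 3851 and 236 CPM. The other GRKO libraries at 6 months had 6.14 to 14.0 CPM, GRKO at 3 months 3.31 to 130 CPM, WT libraries 2 and 6 at 3 months 4.58 and 8.71 CPM, and WT at 6 months 4.03 to 51.6 CPM besides 360 CPM in library 9. Outside the block, the sum of the lower transcripts was 81.9 CPM in GRKO library 10 at 6 months and 409.5 CPM in library 12, against 153 to 304 CPM in the other 4. ENSDART00000188266.1 alone made 306 CPM of the sum in library 12. The block was picked for its level in libraries 10 and 12, so nothing is read from these sums.

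ENSDART00000170044.2 and ENSDART00000136837.2 were the first 2 of the block in the order of the rule. ENSDART00000170044.2 stood at 222, 118 and 15.6 CPM in WT libraries 10, 12 and 13 at 3 months, at 0 in libraries 2 and 6, and at 864 and 581 CPM in GRKO libraries 10 and 12 at 6 months. Its other values were 0 in the remaining 4 older mutants, 0 to 0.494 CPM in GRKO at 3 months and 0 to 10.7 CPM in WT at 6 months. ENSDART00000136837.2 stood at 621, 447 and 27.1 CPM in WT libraries 10, 12 and 13 at 3 months, at 0 in libraries 2 and 6, and at 4523 and 4040 CPM in GRKO libraries 10 and 12. For both, the older mutants split into a pair above every WT library and 4 libraries at or near 0.

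**Figure D4:**
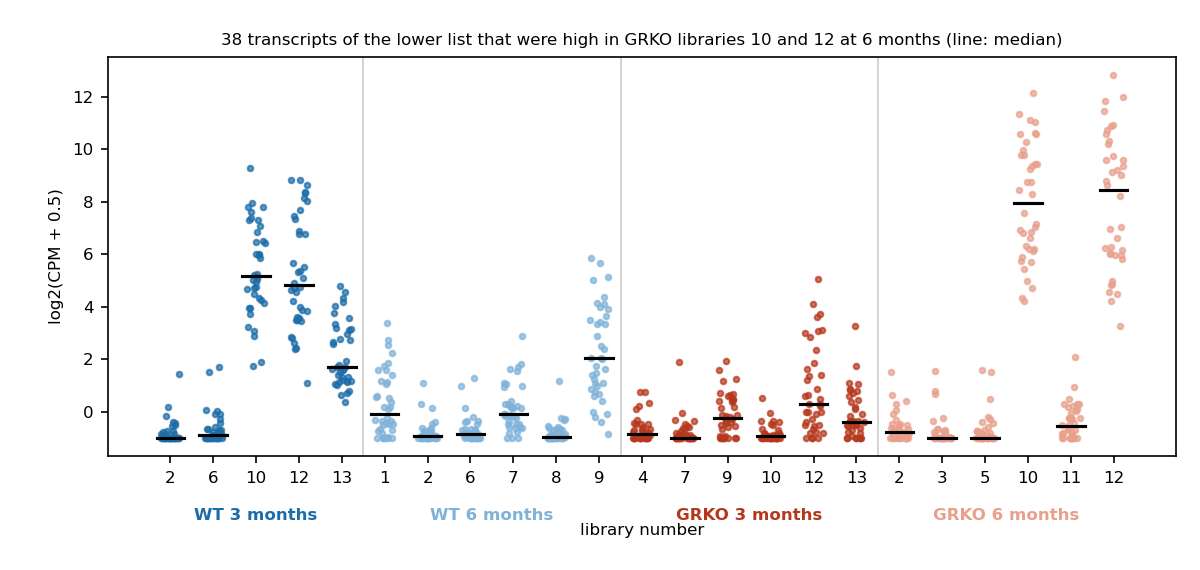
Level of the 38 transcripts of the block in each library, in log2(CPM + 0.5), where each point is a transcript and each line the median of the 38. GRKO libraries 10 and 12 at 6 months (medians 253 and 347 CPM) sit above WT libraries 10 and 12 at 3 months (35.5 and 28.1 CPM), and most other libraries sit near the floor of the scale.

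The split set held 12 transcripts for which WT libraries 10, 12 and 13 at 3 months and WT libraries 8 and 9 at 6 months stood at least 2-fold away from all 18 other libraries. Of the 21333 transcripts 17 met this condition, so the 150 took 12 of them. The condition by itself sets the young WT median apart from those of GRKO at 3 months and WT at 6 months. It thus largely restates the rule, and nothing is read from this share. In 7 transcripts, all of the lower list, the 5 libraries were high, and in 5, all of the higher list, they were low. No transcript was in both this set and the block. ENSDART00000158071.2, ENSDART00000143753.2 and ENSDART00000078998.6, whose values open the results, were all in this set.

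ENSDART00000112155.3 was in the split set with a low level where the first-ranked transcript had none. It stood at 382, 368 and 1017 CPM in WT libraries 10, 12 and 13 at 3 months and at 4.82 and 5.75 CPM in libraries 2 and 6. WT libraries 8 and 9 at 6 months had 489 and 469 CPM, and the other 4 had 7.93 to 9.25 CPM. GRKO ranged from 4.71 to 7.28 CPM at 3 months (median 6.48) and from 4.76 to 7.97 CPM at 6 months (median 6.47). WT libraries 2 and 6 at 3 months lay inside the GRKO range.

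The remaining 58 lower transcripts lay outside the block, and WT library 6 at 6 months was on the young WT side in 29 of them. In those 29 its median level was 6.49 CPM, beside 4.60, 7.25 and 12.7 CPM in WT libraries 10, 12 and 13 at 3 months. WT libraries 2 and 6 at 3 months were at a count of 0 in 23 and 21 of the 29, and the 12 GRKO libraries were at 0 in 19 to 23. The other 5 WT libraries at 6 months were on the young WT side in 1 to 6 of the 29. Over all 58, each of the WT libraries at 6 months was on the young WT side in 4 (library 1) to 29 (library 6), and each GRKO library at 3 months in 2 to 6.

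The 6 GRKO libraries at 6 months took no part in the choice beyond the minimum level. The 2 levels they are placed between are, however, those that chose the transcripts. A young WT median picked for lying far from the others would by itself put another group nearer 1. Their place is therefore a description with no test. The minimum level was met by 6 of the 150, 3 of them in the block, only through GRKO libraries 10 and 12 at 6 months. ENSDART00000081946.5 met it only through the 6 older mutants together, and whether others did so was not counted. With 0 for the young WT median and 1 for the mean of the 2 other medians, the median of GRKO at 6 months lay at 1.00 over the 150 (quartiles 0.943 and 1.08). It lay past the midpoint in 140 of the 150 (93.3%), 48 of 54 in the higher list and 92 of 96 in the lower. Over the 8657 candidates it did so in 79.2%, where the 2 levels lie far closer together. It was within 0.5 on the log2 scale of the GRKO median at 3 months in 114 of the 150 (76%), against 93.6% of the candidates.

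Medians of 6 libraries leave out a pair that stands apart, and by single libraries the older mutants were less even. All 6 lay past the midpoint in 59 of the 150, 22 of the higher list and 37 of the lower, none of them in the block. Among the candidates, where the 2 levels lie far closer together, all 6 did so in 2017 of 8657. GRKO libraries 2, 3, 5 and 11 were past it in 130 to 139 of the 150, and libraries 10 and 12 in 100 and 92. Outside the block, libraries 10 and 12 were past the midpoint in 53 and 50 of the 58 lower transcripts, and the other 4 in 49 to 54. The block was set aside for its level in libraries 10 and 12, so this likeness is partly fixed and nothing is read from it.

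The test could be run on 144 of the 150 transcripts, all 54 of the higher list and 90 of the lower. Each comparison below has GRKO at 6 months as one arm and, as the other, a group whose level chose the transcripts, so its count is set beside the share over all 30849 transcripts tested. Calls are those with an adjusted p under 0.05 in edgeR's quasi-likelihood test with Benjamini-Hochberg adjustment. The 3 comparisons share the older mutants, and their values are given side by side.

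Between GRKO at 6 and at 3 months, none of the 150 was called, where 0.0162% of all transcripts were. At an unadjusted p under 0.05 there were 42 (29.2% of those tested, against 10.3% of all transcripts), and the lowest adjusted p was 0.145. The 42 include all 38 of the block, which was picked for its level in GRKO libraries 10 and 12 of this same group, so nothing is read from that. Without these 2 libraries 4 of the 149 tested had an unadjusted p under 0.05, beside 3511 of 31598 over all transcripts. DESeq2 called 35 of the set, all higher at 6 months and 32 of them in the block, where it called 1.62% of all transcripts higher. Without the 2 libraries it called 9 of the 149 tested, of which 5 were higher and 4 lower. Over all 31598 transcripts it then called 459, of which 258 were higher and 201 lower. In the higher list the median log2 fold change was 0.01, from 28 positive and 26 negative values, and 1 of 54 reached an unadjusted p under 0.05.

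The largest rises of the median from GRKO at 3 to GRKO at 6 months were in 2 lower transcripts, and both rested on libraries 2, 3 and 5. ENSDART00000133763.2 stood at 88.7, 120 and 72.1 CPM in these 3 and at 1.48 to 2.04 CPM in libraries 10, 11 and 12, beside 1.91 to 2.53 CPM in GRKO at 3 months (median 2.38). ENSDART00000029051.5 stood at 5.49, 5.68 and 5.93 CPM in them and at 0.324 to 1.63 CPM in the others, beside 0.205 to 11.4 CPM in GRKO at 3 months (median 0.433), the top value being that of library 4. The older mutants thus divided into libraries 2, 3 and 5 against 10, 11 and 12 for both. Their log2 fold changes over the 2 ages were 4.29 (SE 1.01, adjusted p = 0.145) and 0.45 (SE 1.02, adjusted p = 0.944) by edgeR, neither past the threshold.

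At the other end, the largest falls of the median were in 2 transcripts of the higher list with low and scattered values. ENSDART00000158752.2 stood at 2.82 and 1.41 CPM in GRKO libraries 10 and 12 at 6 months and at a count of 0 in the other 4, and ranged from 0.000231 to 2.85 CPM in GRKO at 3 months. ENSDART00000171797.2 stood at 1.51 and 1.29 CPM in GRKO libraries 10 and 11 at 6 months and at a count of 0 in the rest, and ranged from 0 to 4.23 CPM at 3 months. WT libraries 2 and 6 at 3 months had 8.92 and 10.5 CPM of it, above every GRKO library. Its edgeR log2 fold changes from WT at 3 months thus went against its list, at -1.20 for GRKO at 3 months and -0.64 for WT at 6 months. The mutant ages overlapped for both transcripts. Neither was called, with adjusted p = 0.89 and 0.80 by edgeR.

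Between GRKO and WT at 6 months, 9 of the 150 were called (6.25% of those tested), where 6.05% of all transcripts were. All 9 were in the lower list, 6 of them higher in GRKO (beside 2.53% of all transcripts) and 3 lower (beside 3.51%); 5 were in the block and 2 in the split set. At an unadjusted p under 0.05 there were 66 (45.8%, against 21.9% of all transcripts), again all in the lower list. In the higher list 0 of 54 reached even that, and the lowest adjusted p was 0.274. The 66 include all 38 of the block, which was picked for its level in GRKO libraries 10 and 12 at 6 months. Nothing is therefore read from the excess. Without these 2 libraries 32 of the 149 tested had an unadjusted p under 0.05, beside 4725 of 31598 over all transcripts. Which direction had more calls changed between tools and libraries. DESeq2 gave 29 higher and 16 lower, limma 7 higher and 0 lower, and DESeq2 without GRKO libraries 10 and 12 at 6 months 1 higher and 21 lower. Over all transcripts these fits gave 1519 higher and 1871 lower, 1342 and 1376, and 649 and 1281. In edgeR, leaving out WT library 1, 2 or 6 at 6 months gave 2 and 3, 2 and 4, or 0 and 2 calls higher and lower. Over all transcripts that was 754 and 933, 616 and 944, or 429 and 780. The count moved with single libraries as well. It was 1 without GRKO libraries 10 and 12 at 6 months, 2 without library 10 alone, 1 without library 12 alone and 16 without library 3. The calls over all transcripts were then 630, 1287, 1100 and 1924. For the set the count was 5, 2, 3 and 17 without WT libraries 1, 6, 8 and 9 at 6 months, beside 1687, 1209, 1362 and 1696. WT libraries 2 and 6 at 3 months are in the fit but not in the comparison. Without either the count was 19 and 16, and without both it was 36 (29 higher, 7 lower), with 150 of the set tested in place of 144. Over all transcripts the calls were 2307 and 2193, and 3482 of 32847 without both (1655 higher, 1827 lower). The cause was not tested. With GRKO library 4 at 3 months counted as WT the count was 4, beside 1309 of 30849 over all transcripts.

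ENSDART00000133763.2 and ENSDART00000003845.9 were the higher calls of this comparison with the smallest p. The first had 1.40 to 7.33 CPM in WT at 6 months (median 2.31), so that GRKO libraries 2, 3 and 5 lay above every WT library and the other 3 within the WT range (log2 fold change 3.97, SE 0.99, adjusted p = 0.0207 by edgeR; passed in 33 of 37 alternatives). ENSDART00000003845.9, of the block, had 345 and 561 CPM in GRKO libraries 10 and 12 and 0.580 to 2.40 CPM in the other 4, beside 0 to 3.58 CPM in WT (median 0.605). Its log2 fold change was 7.35 (SE 1.90, adjusted p = 0.0241 by edgeR), passed in 29 of 37 alternatives, and fell to 0.11 in the lowest of them. Both differences thus came from a part of the older mutants. Both transcripts were named for their small p, and the level of WT at 6 months helped choose them.

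The lower calls with the smallest p were ENSDART00000112155.3 and ENSDART00000099868.5. They were named for that p, and the level of WT at 6 months helped choose them. For ENSDART00000112155.3, whose values are given above, GRKO differed from WT by -4.65 log2 units (SE 1.24, adjusted p = 0.0292 by edgeR) and 25 of 37 alternatives passed, while WT libraries 8 and 9 alone were far from the mutants. ENSDART00000099868.5 stood at 5.22 and 3.97 CPM in WT libraries 1 and 6 at 6 months and at 0 to 0.160 CPM in the other 4. In GRKO it stood at 0.0959 CPM in library 10 at 6 months and at 0 in the other 5. Over the groups that is 302 counts against 3, a ratio of 101 per library size with a 95% interval of 34.3 to 493 for counting error only, and the adjusted p was 0.0407 by edgeR, passed in 23 of 36 alternatives.

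Between GRKO at 6 months and WT at 3 months, 20 of the 150 were called (13.9% of those tested), where 5.71% of all transcripts were. The 4 called in the higher list were higher in the mutants, as 2.08% of all transcripts were, and the 16 called in the lower list were lower, as 3.63% were. None of the 20 was in the block, and 3 were in the split set. The lower transcripts outside the block had a median log2 fold change of -4.94, with 49 of 52 negative, and none of the block, which was picked for its high level in 2 of these libraries, was called. Setting the block aside takes out transcripts that were high in this arm, so nothing is read from the values outside it. Over all 90 lower transcripts tested the median was -0.88, with 41 positive and 49 negative. Over the set the median was 0.84, and -3.19 without GRKO libraries 10 and 12 at 6 months. Then 11 were called, beside 844 of 31598 over all transcripts. The count was 11, 11, 10, 8 and 8 without GRKO libraries 2, 3, 5, 10 and 11 at 6 months, 13 and 12 without WT libraries 12 and 13 at 3 months, and 55 without WT libraries 2 and 6. Over all transcripts the calls were 1412, 1427, 1433, 1215 and 1205, then 1318 and 1283, and 5055 of 32847. With GRKO library 4 at 3 months counted as WT the count was 6, beside 761 of 30849 over all transcripts. The young WT arm chose the transcripts, so part of this difference was fixed by the rule.

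ENSDART00000180811.1, after the transcript without overlap the higher call with the smallest p here, showed a graded difference. WT libraries 2, 6, 10, 12 and 13 at 3 months had 8.95, 6.97, 2.82, 0.282 and 2.81 CPM, a mean of 4.37 ± 3.51 (SD, n = 5). GRKO at 6 months ranged from 14.9 to 40.2 CPM (median 32.9, mean 31.2 ± 9.40, SD, n = 6), GRKO at 3 months from 11.7 to 23.1 CPM (median 19.7) and WT at 6 months from 4.32 to 40.8 CPM (median 17.9). Both GRKO groups lay above every young WT library, and WT at 6 months overlapped the young WT in library 1 alone. The log2 fold change of GRKO at 6 months against WT at 3 months was 2.83 (SE 0.58, adjusted p = 0.00526 by edgeR), and 36 of 37 alternatives passed. The young WT arm chose this transcript and it was named for its small p, so part of the difference was fixed by the choice.

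The lower calls with the smallest p in this comparison were again ENSDART00000112155.3 and ENSDART00000099868.5. ENSDART00000112155.3 differed by -5.86 log2 units (SE 1.33, adjusted p = 0.0112 by edgeR) and passed in 35 of 37 alternatives. ENSDART00000099868.5 stood at 0, 2.82, 0.431, 11.4 and 15.7 CPM in WT libraries 2, 6, 10, 12 and 13 at 3 months. That is 1054 counts against 3 in GRKO at 6 months, a ratio of 386 per library size (95% interval 132 to 1875, counting error only), with an adjusted p of 0.0121 by edgeR, passed in 33 of 36 alternatives. In both transcripts young WT libraries overlapped the older mutants, libraries 2 and 6 in the first and library 2 in the second. The young WT arm chose both and both were named for their small p, so part of each difference was fixed by the choice.

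By whole libraries, GRKO at 6 months did not overlap WT at 3 months in 9 of the 150 (6%), all in the higher list, where 4.91% of all transcripts did not. It overlapped GRKO at 3 months and WT at 6 months in all 150, where 1.28% and 5.2% of all transcripts did not overlap. In the 9, all 6 older mutants lay above all 5 young wild types.

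The comparisons that the rule itself used, and the interaction of genotype and age, are given for completeness, with no reading. Of the 150, 21 were called between GRKO and WT at 3 months beside 8.39% of all transcripts, 4 of them higher (2.66%) and 17 lower (5.73%) in GRKO. Between WT at 6 and at 3 months 1 was called, beside 0.00972% of all transcripts and 0.00648% higher at 6 months. The 1 was ENSDART00000081946.5, the transcript without overlap. In each of these 2 comparisons 5 of the 54 higher transcripts had a negative log2 fold change. Of the 90 lower ones tested, 1 had a positive one in each. At 3 months the count was 44 without WT library 2 or 6, 86 without both, 12 without WT library 13, 13 without GRKO library 13 and 1 with GRKO library 4 counted as WT. Over all transcripts these fits called 3504 and 3593, 8937, 1575, 1815 and 456. Between the WT ages limma called 0 higher and 1 lower, beside 14 and 7 of 30849 over all transcripts. The interaction of genotype and age also takes in GRKO at 6 months, which the rule used for the minimum level only. None was called for it, beside 0.00648% of all transcripts, and the lowest adjusted p was 0.16 by edgeR. At an unadjusted p under 0.05 there were 51, against 4.83% of all transcripts. The 51 include all 38 of the block, which was picked for its level in 2 libraries of GRKO at 6 months. Another 7 were lower transcripts outside the block (of 52 tested), and 6 were of the higher list (of 54). Nothing is therefore read from the excess.

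Each library was also set against transcripts chosen without it. When a young WT library was left out, the rule took 150 transcripts from the rest, and the library left out lay on the young WT side in 14 of them (9.33%) for library 2, 18 (12%) for library 6, 45 (30%) for library 10, 56 (37.3%) for library 12 and 70 (46.7%) for library 13. For WT libraries at 6 months the share on the side of their own group was 40% (library 9) to 78.7% (library 1). GRKO libraries at 3 months lay with their group in 80% to 86.7%, and GRKO libraries at 6 months lay on the side of the young mutants in 62% (library 12) to 92.7% (library 11). None of the 5 young WT libraries lay with its own group in as many as 50% of the transcripts chosen without it. The rule picks a young WT median that lies far from 2 groups that match, so the groups are not on equal terms here. The share that the rule alone would give was not computed, and nothing is read from the difference between groups. With WT libraries 2 and 6 at 3 months both left out of the rule, they lay on the young WT side in 10 and 9 of the 150 chosen, and both did so in 6 (4%).

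**Figure D5:**
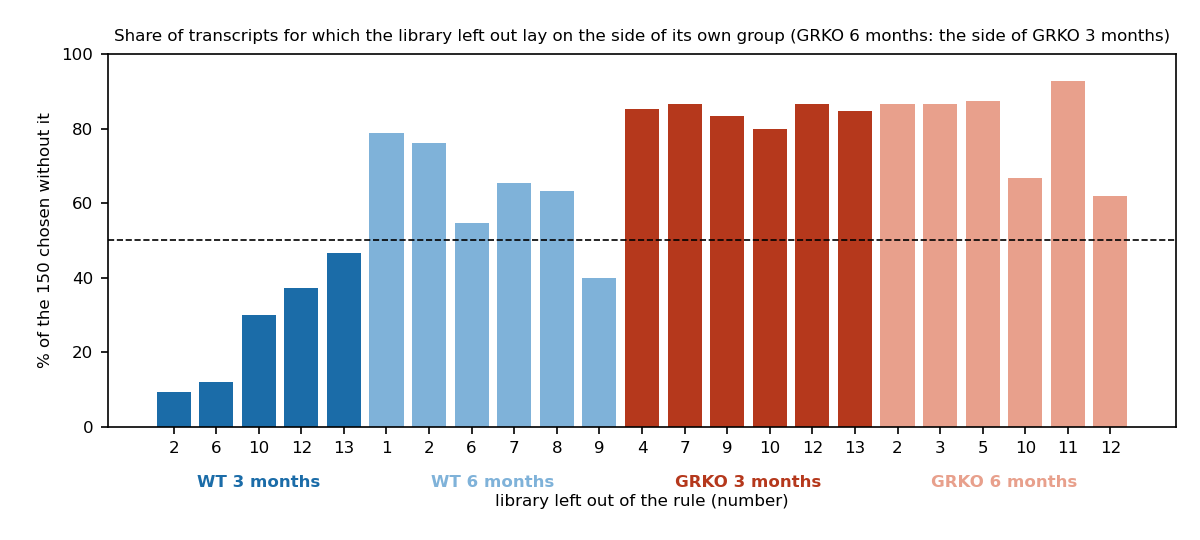
Share of the 150 transcripts chosen without a library for which that library lay on the side of its own group (for GRKO at 6 months, on the side of GRKO at 3 months); the dashed line marks 50%. The 5 young WT libraries range from 9.33% to 46.7%, and the 6 young GRKO libraries from 80% to 86.7%. The rule does not put these groups on equal terms.

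The list itself changed with the libraries and settings of the rule. Leaving out WT library 10 or 12 at 3 months kept 68 of the 150, leaving out library 13 kept 81, and leaving out libraries 2 and 6 together kept 89. Group means in place of medians kept 55, and a minimum mean of 5 CPM in place of 1 kept 69. Transcripts found again kept their direction in every one of these.

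The last 2 transcripts taken and the first 2 not taken differed little in the value that ranked them. ENSDART00000187001.1 and ENSDART00000139494.2, of the lower list, had smaller differences of 1.36 and 1.35 on the log2 scale. ENSDART00000011143.7 and ENSDART00000102123.5, both higher, had 1.35 and 1.33 and were left out. ENSDART00000187001.1, of the block, stood at 2.80, 1.64 and 0.781 CPM in WT libraries 10, 12 and 13 at 3 months and at 0 in libraries 2 and 6. It had 19.8 and 8.97 CPM in GRKO libraries 10 and 12 at 6 months, and met the minimum of 1 CPM only through these 2 libraries. ENSDART00000011143.7, just outside, was more even, with 0.704 to 6.43 CPM in WT at 3 months (median 4.50), 10.3 to 34.2 CPM in WT at 6 months (median 12.2) and 11.2 to 19.8 CPM in GRKO at 3 months (median 15.1), so that young WT overlapped neither group.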

How the data were processed

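Ovary RNA of 23 zebrafish libraries was analysed per transcript. The authors deposited estimated counts, made with kallisto 0.48.0 on the build GRCz11 per the submitters' processing notes. The annotation release, the strand setting and any filtering of reads are not given there. Reads that fit several transcripts are split between them, so a transcript's value can move with that of a near-identical one. Samples were grouped by their titles.

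CPM used the sum of each library's estimated counts. The 150 transcripts and the sets within them were chosen with earlier results of these data known. Tests were run on rounded counts of all 23 libraries with edgeR 4.0.16 (R 4.3.3; quasi-likelihood F test, robust, TMM, 1 mean per group) after its default filter (minimum count 10, total 15), which kept 30849 transcripts. Benjamini-Hochberg adjustment was made over all 30849. Standard errors are fold changes on the log2 scale over the root of F. Alternatives were DESeq2 1.42.0, limma 3.58.1, other scaling, filters, libraries and settings of the rule. The naming rule took, as no table pairs identifiers with genes, 2 transcripts per direction and comparison (by rank, by change of the median, by smallest p among calls) and 2 on each side of the end of the list. The 2 named from the block and ENSDART00000188266.1 were chosen after their values were seen. Lists of cell type markers and pathways could not be applied to the identifiers. Intervals and floors cover counting error only. Figures were drawn with matplotlib 3.10.9.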

Additional observations from a re-analysis of the deposited data

Results flagged for a closer look

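Among the transcripts named above and the summed lists, 72 groups of 5 or 6 libraries were examined. In 12 of them 1 library lay far from the rest of its group by Dixon's criterion. Chance flags about 1 in 20 groups only where values are independent and normally distributed. These transcripts were chosen on their levels, and those of the block rose and fell together. The 12 are therefore not set against that rate. No explanation was tested for any of them.

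WT library 9 at 6 months was the far library in 5 of the 12. Of 3 transcripts of the block, it had 57.4 CPM of ENSDART00000136837.2 (others 0.0682 to 5.36), 10.7 CPM of ENSDART00000170044.2 (others 0 to 1.65) and 0.256 CPM of ENSDART00000187001.1 (others 0 to 0.0844). It also had 3.87 CPM of ENSDART00000029051.5 (others 0.179 to 0.981) and 4.9 CPM of ENSDART00000158752.2 (others 0 to 1.7). WT library 2 at 6 months had 8.69 CPM of ENSDART00000171797.2, where the others had up to 2.48.

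GRKO library 4 at 3 months, whose genotype field names the wild type, had 81.5 CPM of ENSDART00000193273.1 (others 0) and 11.4 CPM of ENSDART00000029051.5 (others 0.205 to 0.664). GRKO library 2 at 6 months had 89.6 CPM of ENSDART00000193273.1 (others 0). GRKO library 12 at 3 months had 12.8 CPM of ENSDART00000136837.2 (others 0 to 2.53), and GRKO library 10 at 3 months had 147 CPM of ENSDART00000143753.2 (others 100 to 114). GRKO library 10 at 3 months also led the summed lower list, at 618 CPM where the others had 139 to 280. Of the 618 CPM, 571 CPM came from ENSDART00000188266.1 alone.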

How the results depend on the processing

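The list of 150 shared 55 transcripts with the list from group means, 98 with a pseudocount of 2, 69 with a minimum of 5 CPM, 95 with a tolerance of 0.25, 88 with GRKO library 4 counted as WT and 89 without WT libraries 2 and 6 at 3 months; leaving out 1 library in turn it shared 68 to 147.

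Counts of calls are given in the order GRKO at 6 against 3 months, GRKO against WT at 6 months, GRKO at 6 against WT at 3 months, GRKO against WT at 3 months, and WT at 6 against 3 months, where the values above are 0, 9, 20, 21 and 1. DESeq2 gave 35, 45, 37, 51 and 3. Over all 30849 transcripts tested it called 700, 3390, 2973, 4116 and 412. DESeq2 without GRKO libraries 10 and 12 at 6 months, chosen after seeing the data, gave 9, 22, 70, 64 and 13. Its calls over all 31598 transcripts were then 459, 1930, 2348, 4488 and 486. For the last 4, edgeR gave 36, 55, 86 and 10 without WT libraries 2 and 6 at 3 months. Over all 32847 transcripts it called 3482, 5055, 8937 and 58 there. With GRKO library 4 counted as WT it gave 4, 6, 1 and 0, and 1309, 761, 456 and 1 over all 30849. With only the groups compared it gave 1, 9, 13 and 0. Over all transcripts that was 1380 of 26557, 783 of 27030, 1447 of 26673 and 1 of 27791. Without a filter the second and the third were 1 and 12, beside 1298 and 1218 of 53183 over all transcripts. Without GRKO libraries 10 and 12 the second to the fourth were 1, 11 and 41. Over all 31598 transcripts they were 630, 844 and 2827. Limma gave 52 of the 144 tested for the fourth, where it called 10176 of all 30849 transcripts. Leaving out 1 library in turn gave 0 in every case for the first, 1 to 19, 8 to 23 and 12 to 44 for the next 3, and 1 in every case for the last. Over all transcripts these fits called 2 to 15, 1100 to 2307, 1205 to 1838, 1575 to 3593 and 2 to 26. The causes were not tested. Other scaling factors, no robust estimation and a filter of 1 CPM in 5 libraries kept all 5 counts within 1.5 times.

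Deviations of same-numbered libraries correlated at -0.292 to 0.359. Libraries with different numbers were not set beside them, so whether the numbers pair the samples cannot be told from these values. With the number as a replicate block the 5 counts were 1, 0, 0, 11 and 0. Over all 30849 transcripts they were 6, 17, 40, 253 and 0.

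Values near the floor of 3 counts rest on few reads, and smaller differences there were not detectable at this depth.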
